A study of Homo sapiens with 6 samples.

Results

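The genes described here encode the proteins of the mitochondrial ribosome. They were chosen as the genes whose symbol starts with MRPL (large subunit) or MRPS (small subunit) followed by a number, with pseudogenes and antisense RNAs left out. The array annotation named 76 such genes, and all 76 were kept by the filter on detection, out of 10877 genes in the analysis. A gene was kept when 2 or more arrays gave a probe of it a detection p under 0.01, and the probe with the highest mean signal stood for its gene. All 76 members were in fact detected on all 6 arrays at that threshold. By symbol 48 belong to the large and 28 to the small subunit.

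Messenger RNA levels were measured in MDA-MB-231 cells, an established human line of triple-negative breast cancer, on Illumina BeadChip arrays. The 3 groups of 2 arrays each were mock-transfected control cells, cells with stable over-expression of the tRNA-Arg gene chr16.trna1 (anticodon CCG), and cells with stable over-expression of the tRNA-Glu gene chr1.trna5 (anticodon TTC). Whether each line is a pool or a single clone is not given in the sources used here. The question put to these genes is how their mRNA levels compare between cells with more of 1 tRNA and control cells. The labels do not tie the replicates of a group to different cultures, so the p-values measure a spread that may be technical.

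The mitochondrial ribosome translates the few mRNAs of the mitochondrial genome, which encode core subunits of the respiratory chain and the ATP synthase. Its rRNAs are made inside the organelle, while all of its proteins are encoded in the nucleus, made on cytosolic ribosomes and imported, so the mRNAs measured here are read by the cytosolic tRNA pool. Many of its proteins have counterparts in the bacterial ribosome, and the others are specific to mitochondria. Breast tumours and their cell lines differ widely in mitochondrial activity, and the genes of this ribosome are commonly expressed in step with those of oxidative phosphorylation.

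Mean non-normalized intensity per array ranged from 250.6 to 331.3, and between 16650 and 17704 probes were detected per array. Across genes r was 0.996 to 0.997 within groups and 0.958 to 0.984 between them, which describes the arrays only. All 7 markers of MDA-MB-231 cells were detected on all arrays, while ESR1, PGR and CDH1 were on none, and ERBB2 and EPCAM, listed as low in this line, were detected on all 6. The summed level of the 8 blood cell markers, of which 4 were detected on at least 2 arrays, was 10.85 to 10.90 on the log2 scale in control, 11.42 to 11.47 in the tRNA-Arg line and 11.93 to 12.01 in the tRNA-Glu line. Of these blood cell markers CD14, CD68 and LAPTM5 were detected on all 6 arrays, CSF1R on 5 and CD79A on 1. PTPRC, CD3E and HBB were detected on no array. Of the 6 fibroblast markers only COL1A1 was detected on at least 2 arrays, and the summed level was 7.62 to 7.66 in control, 7.90 to 7.94 in the tRNA-Arg line and 8.31 to 8.38 in the tRNA-Glu line. The part of either marker list in the differences below was not tested. In bulk RNA a change in level per cell and a change in the share of cells with the transcript cannot be told apart.

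In the tRNA-Glu line the mRNAs of the mitochondrial ribosome were on balance higher than in control. Of the 76 members 42 rose, 5 fell and 29 were not called at an adjusted p under 0.05 (limma, adjusted over all genes, of which 59.5% were called). The rises made up 55.3% of members, against 31.7% of all genes tested, and the falls 6.58%, against 27.8%. The median log2 difference of the members was 0.28 (quartiles 0.02 and 0.58), against 0.04 for all genes. These directions, line minus control, oppose the authors' deposited table of log fold changes, whose sign convention is not stated. There 44 of the 46 called members it lists have the opposite sign in this line and 41 of 41 in the tRNA-Arg line. The authors' processed intensities gave the directions reported here, with 0 of 47 called members turned in sign in this line and 0 of 42 in the tRNA-Arg line. By at least 1.5-fold 18 members rose (23.7%, against 13.6% of all genes) and 1 fell (1.32%, against 12.7%). Line and control arrays were fully separate for 81.6% of members, close to the 80.2% of all genes. The plot of all members shows their differences from control in both lines.

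**Figure D1:**
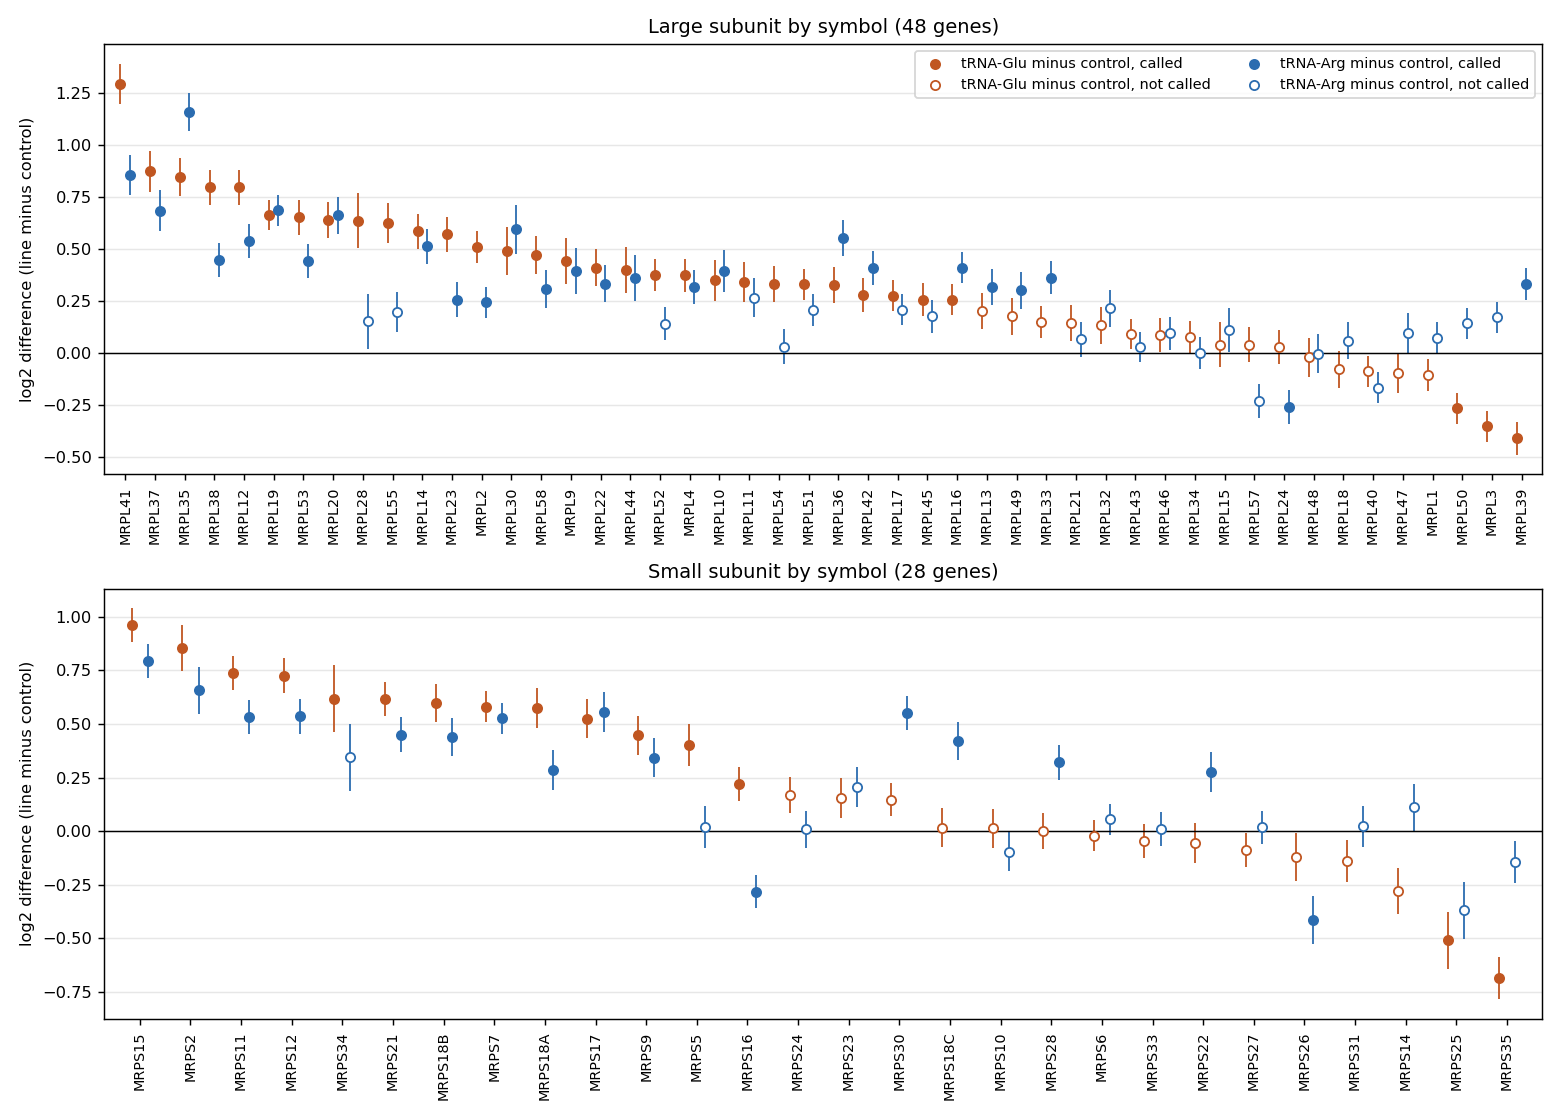
Difference from control on the log2 scale (y axis) of each of the 48 large-subunit and 28 small-subunit members (x axis, in order of the tRNA-Glu difference), with bars for the standard error of the fit over 2 arrays per group. Filled points passed an adjusted p under 0.05 and open points did not; most points of both lines lie above 0, from MRPL41 at 1.30 down to MRPS35 at -0.69 in the tRNA-Glu line.

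Among large-subunit proteins MRPL41, which is specific to mitochondria, showed the largest rise. Its log2 normalized intensity was 9.27 and 9.50 on the control arrays, 10.24 on both tRNA-Arg arrays, and 10.64 and 10.73 on the tRNA-Glu arrays. Every array of either line was thus above both control arrays. The gene was 2.46-fold higher in the tRNA-Glu line (log2 difference 1.30 SE 0.10, 2 arrays in each group, limma, adjusted p = 5.55e-05). MRPL37, another mitochondria-specific protein, read 10.70 and 10.49 in control and 11.42 and 11.51 in the tRNA-Glu line, a 1.83-fold rise (log2 difference 0.87 ± 0.10 SE, adjusted p = 2.82e-04).

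MRPL12 is the flexible stalk protein that recruits translation factors to the ribosome, and it has also been described as a partner of the mitochondrial RNA polymerase. It read 7.41 and 7.32 in control, 7.88 and 7.92 in the tRNA-Arg line, and 8.10 and 8.22 in the tRNA-Glu line. The levels of the 3 groups were separate, and the tRNA-Glu line was 1.74-fold above control (adjusted p = 2.01e-04). Its stalk partners MRPL10 and MRPL11 also rose, with log2 differences of 0.35 and 0.34. MRPL53 and MRPL54, which lie near the base of the stalk, rose by 0.65 and 0.33.

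Several other large-subunit genes were called higher in the tRNA-Glu line on the probe used, singled out here with their values known. MRPL38 rose 1.74-fold, and MRPL58, a ribosomal protein related to release factors, rose 1.39-fold. MRPL23 rose by 0.57 on the log2 scale. MRPL22 differed by 0.41 on the probe used and by -0.03 on its other kept probe, and with both averaged it was not called (0.19, adjusted p = 0.0777). MRPL45, which helps to hold the ribosome at the inner membrane, differed by 0.26 on the probe used and by -0.69 on the other, so the direction for this gene depended on the probe, and the average was not called (-0.22, adjusted p = 0.093). MRPL18, MRPL24, MRPL40, MRPL46, MRPL47 and MRPL48 were not called, with differences between -0.10 and 0.09.

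In the small subunit MRPS15, the counterpart of bacterial S15 that binds early to the rRNA in bacteria, rose most. It read 9.22 and 9.32 in control, 10.06 and 10.07 in the tRNA-Arg line, and 10.27 and 10.19 in the tRNA-Glu line. The groups did not overlap, and the rise in the tRNA-Glu line was 1.95-fold (log2 difference 0.96 ± 0.08 SE, limma adjusted p = 8.26e-05). MRPS2 was at 8.36 and 8.26 in control and at 9.13 and 9.19 in the tRNA-Glu line, 1.81-fold higher (adjusted p = 5.09e-04). MRPS11, a platform protein, rose 1.67-fold and MRPS12, whose bacterial counterpart acts in the accuracy of decoding, rose 1.65-fold. MRPS7 (0.58) and MRPS9 (0.45) also rose, and MRPS10 (0.01) and MRPS14 (-0.28) were not called.

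The 5 members that fell in the tRNA-Glu line were MRPS35, MRPS25, MRPL39, MRPL3 and MRPL50. MRPS35, specific to mitochondria, read 9.32 and 9.49 in control, 9.19 and 9.33 in the tRNA-Arg line, and 8.78 and 8.66 in the tRNA-Glu line. Only the tRNA-Glu arrays stood apart, at a level 1.61-fold below control (log2 difference -0.69 ± 0.10 SE, adjusted p = 8.40e-04). MRPS25 read 6.50 and 6.40 in control and 5.74 and 6.14 in the tRNA-Glu line, and its fall was 1.42-fold (adjusted p = 0.0128), with an uneven pair of tRNA-Glu arrays. This call was lost without control replicate 1 (adjusted p = 0.066) or without tRNA-Glu replicate 1 (-0.31, adjusted p = 0.0532).

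MRPL3, whose bacterial counterpart lies close to the peptidyl transferase centre, read 11.34 and 11.38 in control, 11.51 and 11.56 in the tRNA-Arg line, and 11.04 and 10.97 in the tRNA-Glu line. It was 1.28-fold below control in the tRNA-Glu line (adjusted p = 0.00539), while the tRNA-Arg difference of 0.17 was not called. MRPL50 fell 1.20-fold (adjusted p = 0.0178). With median scaling of the arrays the calls of MRPL3 (-0.12, adjusted p = 0.204) and MRPL50 (-0.10, adjusted p = 0.303) were lost. Leaving out 1 array ended the call of MRPL50 for control replicate 2 (-0.23) and for tRNA-Glu replicates 1 and 2 (-0.27 and -0.26).

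**Figure D2:**
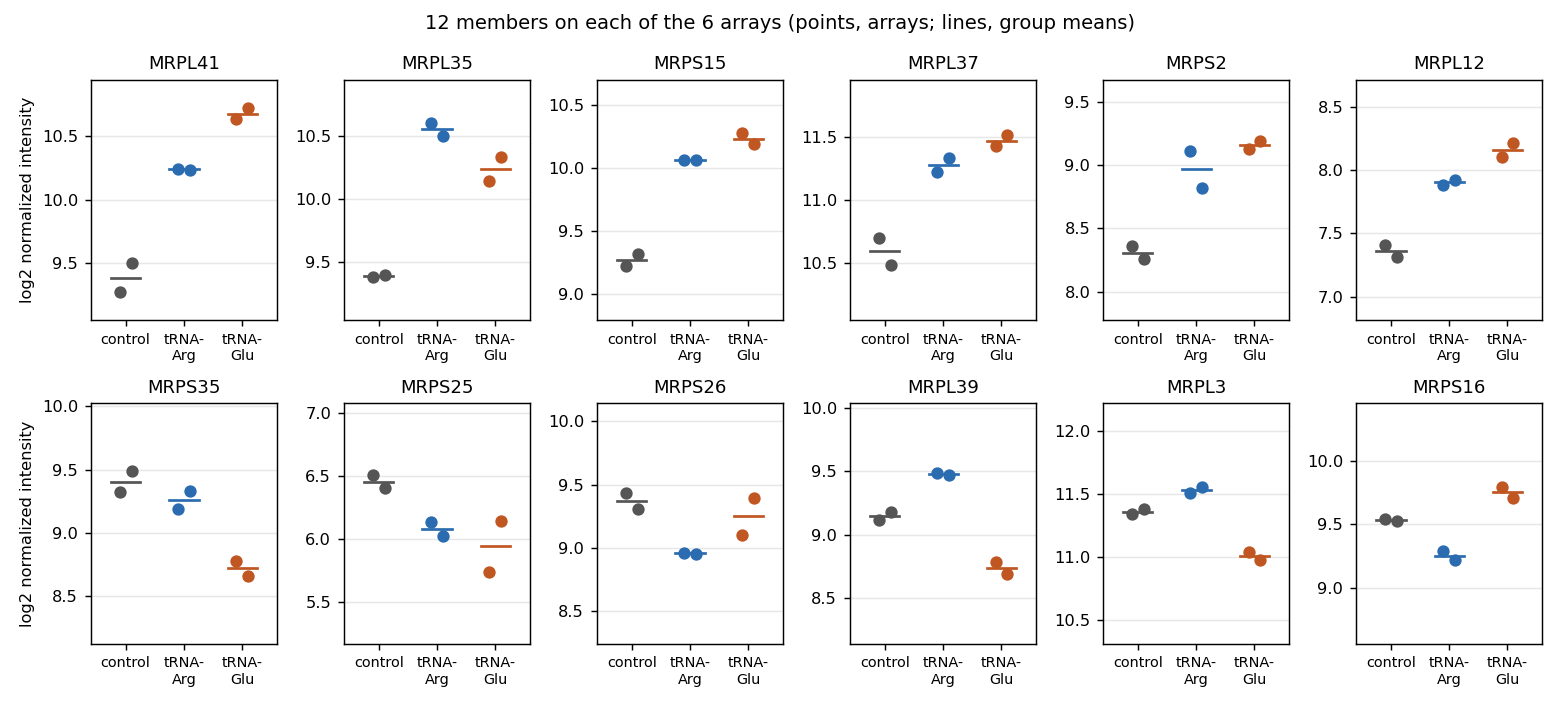
Log2 normalized intensity (y axis) of 12 members on each of the 6 arrays (x axis, group), with points for single arrays and lines for group means. MRPL41, MRPS15, MRPL37, MRPS2 and MRPL12 are higher on all arrays of both lines than in control, and MRPL39, MRPL3 and MRPS35 are lowest on the tRNA-Glu arrays.

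In the tRNA-Arg line the mitochondrial ribosomal genes were also higher than in control. Of the 76 members 39 rose, 3 fell and 34 were not called, where 47.2% of all genes were called. The rises made up 51.3% of members, against 22.8% of all genes, and the falls 3.95%, against 24.4%. The median log2 difference was 0.27 (quartiles 0.07 and 0.44), against -0.02 for all genes. By at least 1.5-fold 8 members rose (10.5%, against 8.37% of all genes) and 0 fell, where 7.99% of all genes did. The arrays did not overlap for 77.6% of members, against 74.6% of all genes. Both comparisons use the same control arrays, so their values stand side by side here and are not independent.

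MRPL35, the counterpart of bacterial L35, rose most in the tRNA-Arg line. It read 9.38 and 9.40 in control, 10.60 and 10.50 in the tRNA-Arg line, and 10.14 and 10.33 in the tRNA-Glu line, so both lines lay above control and the tRNA-Arg arrays highest. The rise was 2.23-fold (log2 difference 1.16 SE 0.09, 2 arrays in each group, limma, adjusted p = 1.16e-04), and the log2 difference in the tRNA-Glu line was 0.85. The other probes of this gene did not show it, with log2 differences of -0.17 and 0.04 in the tRNA-Arg line and -0.41 and 0.06 in the tRNA-Glu line. With the mean of its probes the tRNA-Arg difference was 0.35 (adjusted p = 0.0105) and the tRNA-Glu call was lost (0.17, adjusted p = 0.106). MRPL35 is therefore uncertain as a gene-level change.

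MRPL41 rose 1.81-fold in the tRNA-Arg line (log2 difference 0.86 ± 0.10 SE, adjusted p = 5.23e-04) and MRPS15 1.73-fold (adjusted p = 3.20e-04). MRPL19 was at 8.12 on both control arrays and at 8.78 and 8.84 in the tRNA-Arg line, a 1.61-fold rise (adjusted p = 4.32e-04) beside 1.58-fold in the tRNA-Glu line. MRPL37, MRPL20, MRPS2 and MRPL30 rose between 1.51-fold and 1.61-fold on the probes used. MRPL30 has another kept probe of nearly the same mean level, which differed by 0.03, and averaged over both the rise was 0.31 on the log2 scale (adjusted p = 0.0174). In the tRNA-Glu line the probes of MRPL30 gave 0.49 and -0.09, and their average was not called (0.20, adjusted p = 0.0653). These proteins come from both subunits, and MRPL19, MRPL20, MRPL30, MRPS2 and MRPS15 have bacterial counterparts.

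The 3 members that fell in the tRNA-Arg line were MRPS26, MRPS16 and MRPL24. MRPS26, specific to mitochondria, read 9.44 and 9.30 in control, 8.96 and 8.95 in the tRNA-Arg line, and 9.10 and 9.40 in the tRNA-Glu line, so that the tRNA-Glu arrays overlapped control. Its fall in the tRNA-Arg line was 1.33-fold (log2 difference -0.41 ± 0.11 SE, adjusted p = 0.0189). MRPL24 fell 1.20-fold (adjusted p = 0.0344), a call lost with median scaling (-0.14), without the detection filter, with the replicate block (adjusted p = 0.0531) and without any 1 control or tRNA-Arg array. The number of falls depended on single arrays. It was 0 without control replicate 1, without tRNA-Arg replicate 1 or without tRNA-Arg replicate 2, and 1 with median scaling.

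MRPL39 and MRPS16 were the members called in opposite directions in the lines. MRPL39, a mitochondria-specific protein, read 9.11 and 9.18 in control, 9.48 and 9.47 in the tRNA-Arg line, and 8.78 and 8.69 in the tRNA-Glu line. The 3 groups were separate, with a 1.33-fold fall in the tRNA-Glu line (log2 difference -0.41 ± 0.08 SE, adjusted p = 0.00307) and a 1.26-fold rise in the tRNA-Arg line (0.33 ± 0.08 SE, adjusted p = 0.0111). The rise in the tRNA-Arg line was lost without control replicate 1 (0.30) or without tRNA-Arg replicate 1 (0.32).

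MRPS16, the counterpart of bacterial S16 and a gene in which mutations cause a human disorder of oxidative phosphorylation, ran the other way. It read 9.54 and 9.53 in control, 9.29 and 9.21 in the tRNA-Arg line, and 9.80 and 9.71 in the tRNA-Glu line. Its rise of 0.22 in the tRNA-Glu line (± 0.08 SE, adjusted p = 0.0421) was close to the threshold, and was lost with cyclic loess, without the detection filter, with the replicate number as a block (adjusted p = 0.0533) and without any 1 of the arrays. Its fall of -0.28 in the tRNA-Arg line (adjusted p = 0.0211) was lost with median scaling (-0.19) and without any 1 of the control or tRNA-Arg arrays.

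Set directly against each other, the lines differed for fewer members. In the tRNA-Glu line 14 members were higher and 10 lower than in the tRNA-Arg line, and 52 were not called. These are 18.4% and 13.2% of members, against 24.3% and 18.2% of all genes, and 42.6% of all genes were called in either direction. The arrays of the lines were separate for 59 members, and for 74.1% of all genes. The median log2 difference was 0.06 (quartiles -0.13 and 0.19), against 0.05 for all genes. By at least 1.5-fold 0 members were higher, against 5.07% of all genes, and 1, MRPL39, was lower, against 5.33%. Leaving out 1 array of either line lowered the count of higher members, and in the same fits the share of all genes called higher also fell. Without tRNA-Arg replicate 1 or 2 the count of lower members fell too, as did the share of all genes called lower. MRPL39, MRPS35, MRPL3, MRPL50, MRPS30 and MRPS16 passed in all 6 fits with 1 array left out, while MRPL41 did not pass without tRNA-Glu replicate 2 (0.40) and MRPS22 did not without any 1 array of either line. A group with 1 array left is assumed to vary like the others.

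MRPL39 was 1.67-fold lower in the tRNA-Glu than in the tRNA-Arg line (log2 difference -0.74 SE 0.08, 2 arrays in each group, limma, adjusted p = 0.00119). MRPS35 was 1.46-fold and MRPL3 1.44-fold lower, and MRPL50, MRPS18C, MRPS30, MRPS14 and MRPS22 were between 1.26-fold and 1.33-fold lower. MRPS28 (-0.32) and MRPL35 (-0.31) complete the lower members, though MRPL35 was not called with its probes averaged (-0.18, adjusted p = 0.104). On the other side MRPS16 was 1.42-fold higher (log2 difference 0.50 ± 0.08 SE, adjusted p = 0.00323). MRPL28, MRPL41, MRPL55 and MRPS5 were between 1.30-fold and 1.40-fold higher, and MRPL38, MRPL23 and MRPL54 between 1.23-fold and 1.27-fold. MRPS5 lies at the mRNA channel of the small subunit in bacteria, and MRPL55 is the counterpart of bacterial L31. MRPS30 read 9.71 and 9.76 in control, 10.33 and 10.25 in the tRNA-Arg line, and 9.85 and 9.92 in the tRNA-Glu line, so it was highest on the tRNA-Arg arrays.

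**Figure D3:**
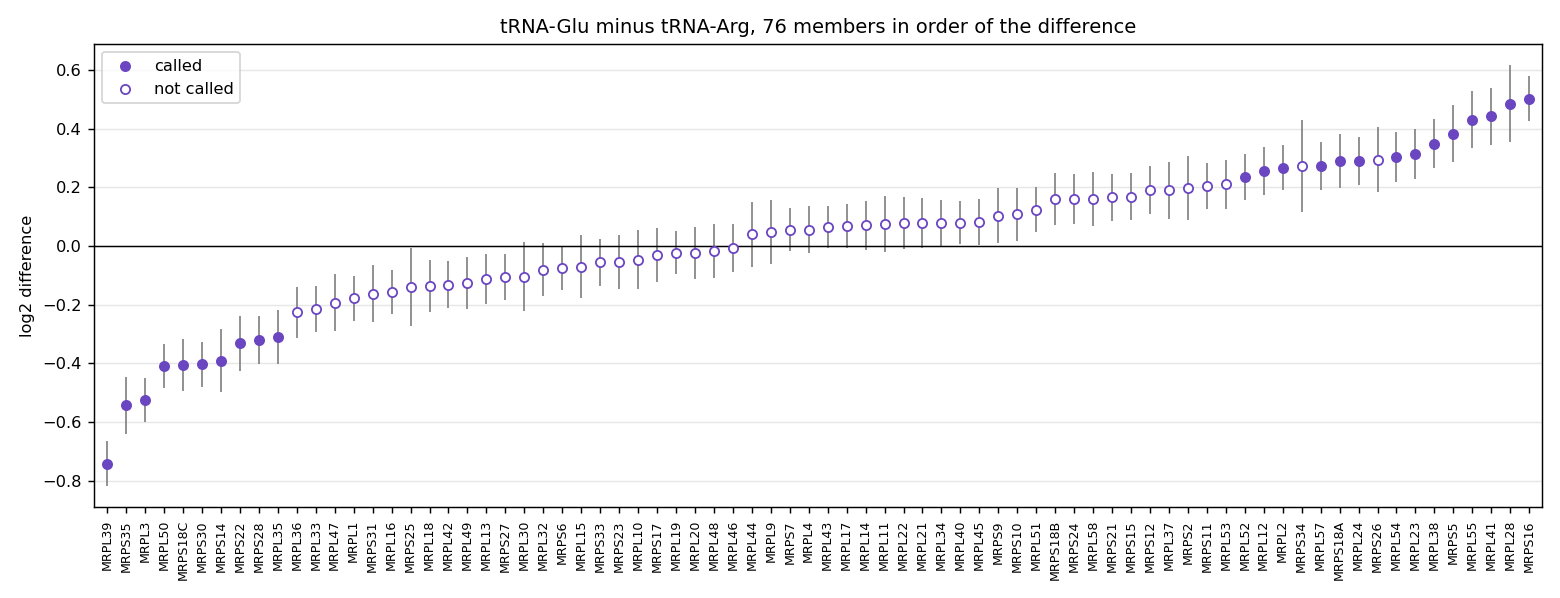
Difference between the lines, tRNA-Glu minus tRNA-Arg on the log2 scale (y axis), for the 76 members in order (x axis), with bars for the standard error of the fit over 2 arrays per group. Filled points passed an adjusted p under 0.05; the called members lie at both ends, from MRPL39 at -0.74 to MRPS16 at 0.50.

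By symbol, the large subunit had 29 of 48 genes rising and 3 falling in the tRNA-Glu line (60.4% and 6.25%), with a median log2 difference of 0.33. The small subunit had 13 of 28 rising and 2 falling (46.4% and 7.14%), with a median of 0.16. All genes had 31.7% rising and 27.8% falling, with a median of 0.04. The medians of the subunits thus differed by 0.17, within quartiles that overlapped widely (0.09 to 0.53 and -0.05 to 0.59). In the tRNA-Arg line 25 of 48 large-subunit genes rose and 1 fell (52.1% and 2.08%, median 0.26). There 14 of 28 small-subunit genes rose and 2 fell (50% and 7.14%, median 0.28), against 22.8% and 24.4% of all genes (median -0.02). Between the lines the subunit medians were 0.06 and 0.08, against 0.05 for all genes. No test was made of the subunits, since genes of a list are not replicates. The gap in the tRNA-Glu line was 0.10 with median scaling and 0.11 when the probes of a gene were averaged.

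MRPS30 and MRPS18A carry small-subunit symbols but sit in the large subunit in structures of the human ribosome. With both moved, the gap in the tRNA-Glu line remained 0.17, and that in the tRNA-Arg line turned from -0.02 to 0.03, both near 0. MRPS18A, MRPS18B and MRPS18C are paralogs related to bacterial S18, of which the uniform names class MRPS18C as bacterial and MRPS18A and MRPS18B as mitochondria-specific. MRPS18A rose in both lines, 1.49-fold with tRNA-Glu and 1.22-fold with tRNA-Arg, and MRPS18B rose 1.52-fold and 1.36-fold. MRPS18C read 10.58 and 10.41 in control, 10.90 and 10.94 in the tRNA-Arg line, and 10.46 and 10.56 in the tRNA-Glu line. It rose 1.34-fold in the tRNA-Arg line (adjusted p = 0.00729) and was not called in the tRNA-Glu line (log2 difference 0.02, adjusted p = 0.882).

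The proteins were also grouped by the class in their uniform ribosomal protein names, which for MRPS18A and MRPS18B does not follow their relation to bacterial S18. Of all genes 31.7% rose and 27.8% fell with tRNA-Glu, and 22.8% and 24.4% with tRNA-Arg. Of the 27 universal proteins, shared by all kingdoms, 17 rose and 1 fell with tRNA-Glu (median 0.37), and 16 rose and 1 fell with tRNA-Arg (median 0.32). Of the 18 shared with bacteria only, 11 rose and 0 fell (median 0.30), and 10 rose and 1 fell (median 0.34). Of the 31 specific to mitochondria, 14 rose and 4 fell (45.2% and 12.9%, median 0.15), and 13 rose and 1 fell (41.9% and 3.23%, median 0.21). The mitochondria-specific class had the lowest median in either line, and it holds both the largest rise (MRPL41) and the largest fall (MRPS35) of the tRNA-Glu line. The ranges of the classes overlapped and were not tested against each other.

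Cytosolic ribosomal proteins on the same arrays had medians near 0. Of 71 such genes 8 rose while 8 fell with tRNA-Glu (median 0.01), and 10 rose and 10 fell with tRNA-Arg (median 0.02). In each direction these are 11.3% with tRNA-Glu and 14.1% with tRNA-Arg. Among all genes 31.7% rose and 27.8% fell with tRNA-Glu, and 22.8% and 24.4% with tRNA-Arg. Complex I is the largest enzyme of the respiratory chain, and some of its subunits are made by the mitochondrial ribosome. It had 19 of 32 nuclear-encoded genes rising and 4 falling with tRNA-Glu (59.4% and 12.5%, median 0.31). With tRNA-Arg 13 rose and 2 fell (40.6% and 6.25%, median 0.20). Between the lines complex I had 13 genes higher and 2 lower (median 0.17), while the mitochondrial ribosome had a median of 0.06. For complex I this is 40.6% higher and 6.25% lower, against 24.3% and 18.2% of all genes. These medians describe the lists and are not tests of a difference between them.

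**Figure D4:**
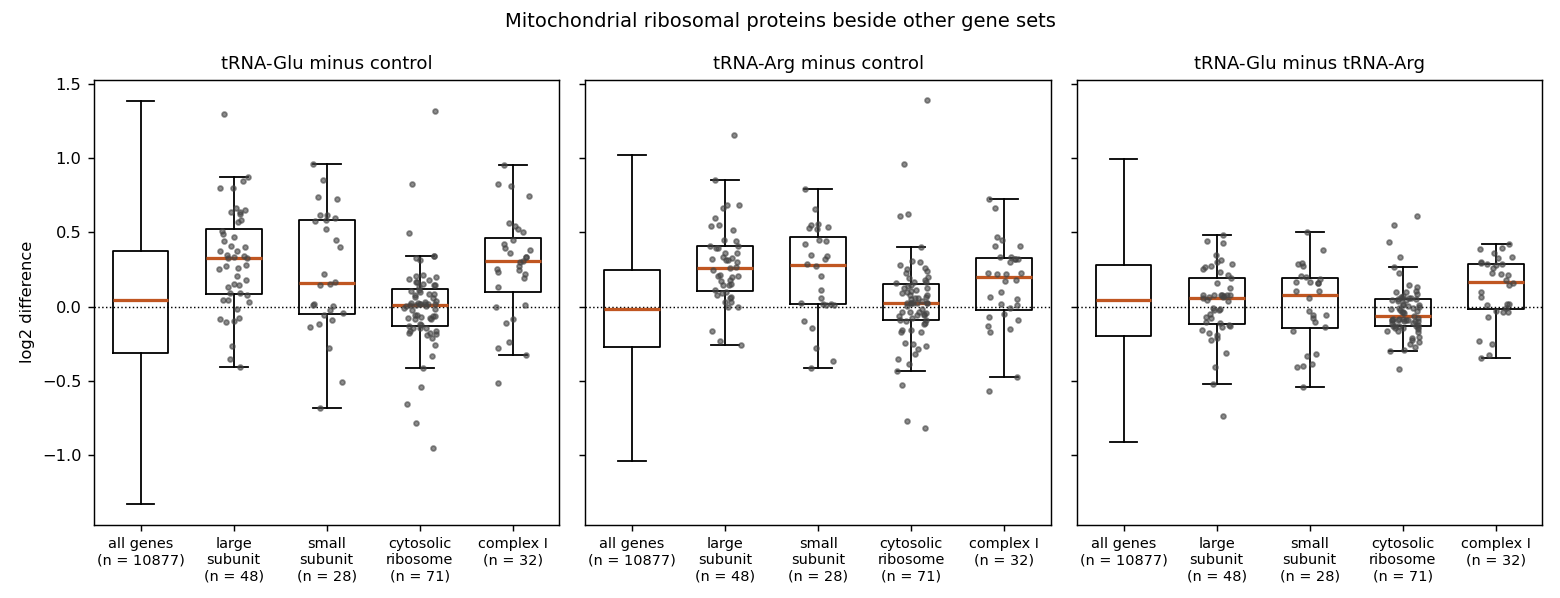
Log2 difference per gene (y axis) in the 3 comparisons, for all 10877 genes, both subunits of the mitochondrial ribosome, cytosolic ribosomal proteins and complex I (x axis, n genes). Boxes span the quartiles with the median in orange, whiskers reach at most 1.5 box lengths, and points are single genes (outliers of all genes not drawn); in both lines the medians of the mitochondrial ribosome and complex I lie above those of the cytosolic ribosome.

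Other genes that serve mitochondrial translation are given from lists of their roles. Subunits without an MRP symbol were measured for 3 genes. GADD45GIP1, a large-subunit protein, rose 1.73-fold with tRNA-Glu (log2 difference 0.79 ± 0.07 SE, adjusted p = 1.36e-04) and 1.42-fold with tRNA-Arg (adjusted p = 0.0015), while DAP3 and CHCHD1 were not called in either line (0.04 and 0.20 with tRNA-Glu, 0.18 and 0.09 with tRNA-Arg). Of 14 translation factors 4 rose and 1 fell with tRNA-Glu, and 3 rose and 2 fell with tRNA-Arg, so 35.7% were called in each line, below the 59.5% and 47.2% of all genes. TACO1, a translational activator of cytochrome oxidase subunit I, rose 1.56-fold and 1.41-fold, and GUF1, a back-translocating GTPase, by log2 differences of 0.78 and 0.88. GFM1, the elongation factor that moves the ribosome along the mRNA, fell by 0.58 on the log2 scale with tRNA-Glu (adjusted p = 4.65e-04) and 1.20-fold with tRNA-Arg (adjusted p = 0.0212).

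Of 25 genes of ribosome assembly and rRNA modification, 7 rose and 4 fell with tRNA-Glu and 5 rose and 4 fell with tRNA-Arg, which is 44% and 36% called, against 59.5% and 47.2% of all genes. RCC1L, an assembly factor, rose 1.81-fold and 1.60-fold. FASTKD2, which is needed for the large-subunit rRNA, fell 1.82-fold and 1.33-fold (adjusted p = 1.74e-04 and 0.00714). Of 21 genes of mitochondrial transcription and RNA processing, 3 rose and 5 fell with tRNA-Glu and 5 rose and 3 fell with tRNA-Arg, 38.1% called in each line. ELAC2, which cuts the 3′ ends of tRNAs, rose 1.60-fold and 1.31-fold, and TRMT10C, a subunit of mitochondrial RNase P, fell 1.43-fold and 1.27-fold.

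Of 12 measured nuclear regulators of mitochondrial genes, 2 rose and 4 fell with tRNA-Glu, and 1 rose and 4 fell with tRNA-Arg. The falls are 33.3% in each line, near the 27.8% and 24.4% of all genes. GABPA, the ETS-family factor known as NRF2 alpha in this field, read 7.46 and 7.54 in control, 6.21 and 6.51 in the tRNA-Arg line, and 5.33 and 5.71 in the tRNA-Glu line. It was 3.95-fold lower with tRNA-Glu (log2 difference -1.98 ± 0.15 SE, adjusted p = 5.39e-05) and 2.21-fold lower with tRNA-Arg (adjusted p = 8.98e-04). MYC, which raises ribosome and mitochondrial genes in many cells, fell 1.68-fold and 1.33-fold. PPARGC1A, the coactivator PGC-1 alpha, rose 1.97-fold with tRNA-Glu (adjusted p = 1.48e-04) and 1.33-fold with tRNA-Arg (adjusted p = 0.00997). PPRC1 was lower in both lines, by log2 differences of -0.26 (adjusted p = 0.034) and -0.55 (adjusted p = 0.00208). GABPB1 was lower with tRNA-Glu (log2 difference -0.58, adjusted p = 0.00158) and not called with tRNA-Arg (0.20).

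**Figure D5:**
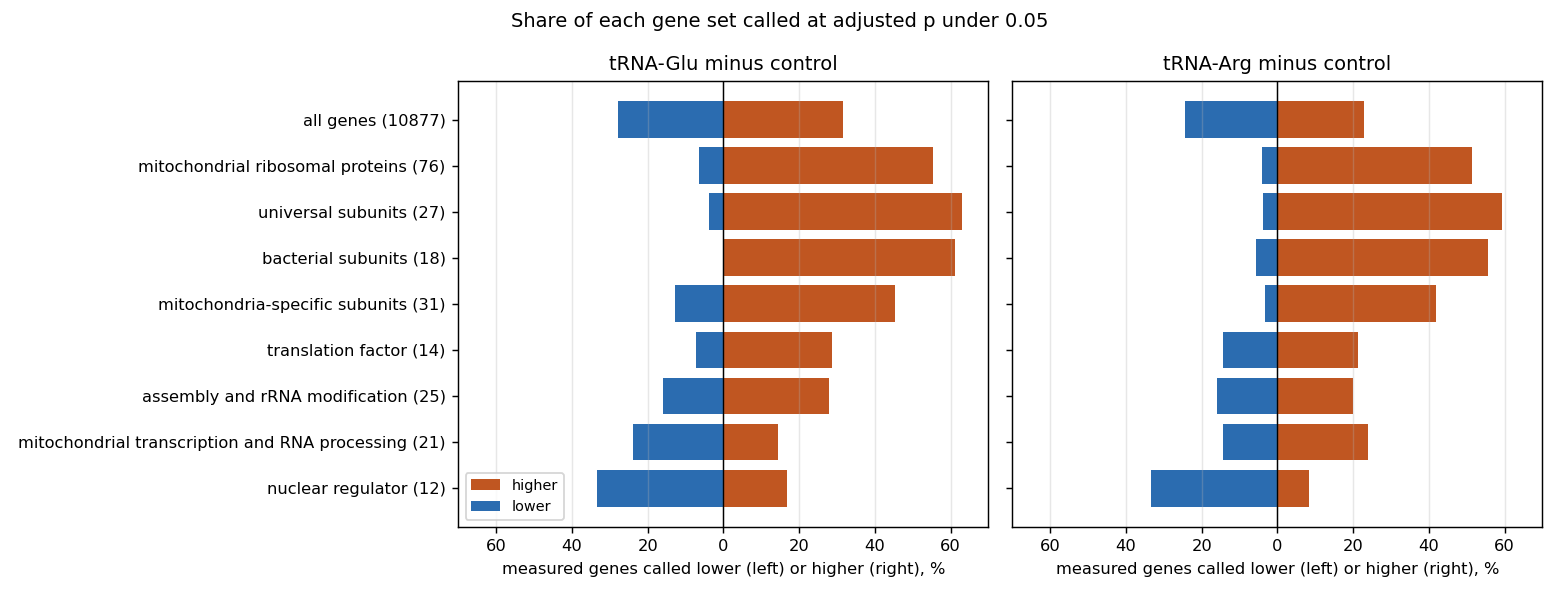
Share of measured genes called higher (right, orange) or lower (left, blue) than control at an adjusted p under 0.05 (x axis, percent), for all genes, the members and their 3 classes, and 4 lists of related genes (y axis, number measured). In both lines the bars of the mitochondrial ribosome extend mostly to the right, while 33.3% of the nuclear regulators were lower, against 27.8% and 24.4% of all genes.

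The promoters of the members were read for 3 short motifs, in windows from 250 bases before to 50 after the annotated start (RefSeq, GRCh38.p14), which were found for 68 of the 76 genes. The motifs, on either strand, were CCGGAAG of ETS factors such as GABPA, AAGATGG of YY1 and CATGCGC of NRF1, where the last letters of the ETS motif (AAG) can be the first of the YY1 motif. The ETS letters stood in 28 member promoters (41.2%), against 20% of 8854 genes tested and 10.3% of all 35116 promoters. The YY1 letters stood in 23 (33.8%), against 7.84% and 5.84%, and the NRF1 letters in 7 (10.3%), against 7.84% and 4.43%. A match describes the sequence and is not a site of binding.

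Members with and without the ETS letters are given side by side. With tRNA-Glu 15 of the 28 with them rose and 1 fell (median 0.24), and 23 of the 40 without rose and 4 fell (median 0.30). With tRNA-Arg 12 of 28 rose and 2 fell (median 0.21), and 21 of 40 rose and 1 fell (median 0.31). The shares of all genes were 31.7% rising and 27.8% falling with tRNA-Glu, and 22.8% and 24.4% with tRNA-Arg. Genes outside the members were not split by the letters. For the YY1 letters the medians with and without were both 0.28 with tRNA-Glu and 0.27 and 0.28 with tRNA-Arg. These counts are descriptions without a test.

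The 250 bases before the start are shown for MRPL41 and MRPS35, the largest rise and fall with tRNA-Glu, and MRPS26, the largest fall with tRNA-Arg. For MRPL35, the largest rise with tRNA-Arg, no window was found. Also shown are MRPL39 and MRPS16 with their opposite calls, and MRPL20 and MRPS22, the named members with most motif matches. Capitals mark the motif letters, and sequences with none are in lower case throughout. MRPL41 lies at chr9:137551629-137551878 (plus strand), MRPL20 at chr1:1407294-1407543 (minus strand), MRPS22 at chr3:139343744-139343993 (plus strand), MRPS26 at chr20:3045802-3046051 (plus strand), MRPS16 at chr10:73252645-73252894 (minus strand), MRPL39 at chr21:25607482-25607731 (minus strand) and MRPS35 at chr12:27710582-27710831 (plus strand).
MRPL41: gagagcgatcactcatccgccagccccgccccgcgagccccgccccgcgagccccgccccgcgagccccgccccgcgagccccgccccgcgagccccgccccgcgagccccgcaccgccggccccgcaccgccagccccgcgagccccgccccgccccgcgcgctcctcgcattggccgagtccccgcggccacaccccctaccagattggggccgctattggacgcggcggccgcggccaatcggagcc
MRPL20: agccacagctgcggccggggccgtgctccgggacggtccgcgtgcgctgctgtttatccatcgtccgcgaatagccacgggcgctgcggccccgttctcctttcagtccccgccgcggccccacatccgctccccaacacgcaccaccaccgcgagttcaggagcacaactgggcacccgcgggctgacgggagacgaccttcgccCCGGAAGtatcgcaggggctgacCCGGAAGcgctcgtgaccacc
MRPS22: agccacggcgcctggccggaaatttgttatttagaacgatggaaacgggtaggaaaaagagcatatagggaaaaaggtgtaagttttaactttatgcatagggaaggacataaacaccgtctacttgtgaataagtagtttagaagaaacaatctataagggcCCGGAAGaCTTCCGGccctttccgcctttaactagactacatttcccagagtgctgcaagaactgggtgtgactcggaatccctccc
MRPS26: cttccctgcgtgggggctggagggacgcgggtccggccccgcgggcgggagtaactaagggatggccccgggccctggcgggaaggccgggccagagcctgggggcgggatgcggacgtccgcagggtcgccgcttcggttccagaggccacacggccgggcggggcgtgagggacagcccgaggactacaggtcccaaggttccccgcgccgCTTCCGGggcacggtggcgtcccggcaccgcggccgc
MRPS16: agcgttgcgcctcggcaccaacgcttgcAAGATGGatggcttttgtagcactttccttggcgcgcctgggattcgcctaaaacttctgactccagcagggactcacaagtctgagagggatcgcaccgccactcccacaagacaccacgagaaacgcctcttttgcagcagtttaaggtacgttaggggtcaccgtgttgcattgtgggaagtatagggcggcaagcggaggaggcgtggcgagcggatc
MRPL39: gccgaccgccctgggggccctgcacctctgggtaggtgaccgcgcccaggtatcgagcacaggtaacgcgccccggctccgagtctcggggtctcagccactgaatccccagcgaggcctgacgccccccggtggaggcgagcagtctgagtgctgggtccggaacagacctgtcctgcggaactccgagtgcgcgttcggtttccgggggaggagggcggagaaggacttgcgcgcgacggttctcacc
MRPS35: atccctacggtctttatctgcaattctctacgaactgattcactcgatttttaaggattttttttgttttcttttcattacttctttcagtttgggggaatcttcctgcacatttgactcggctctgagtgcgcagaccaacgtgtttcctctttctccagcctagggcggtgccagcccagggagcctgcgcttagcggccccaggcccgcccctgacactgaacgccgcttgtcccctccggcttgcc

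MRPL41, with the largest rise in the tRNA-Glu line, has none of the 3 motifs. Its promoter holds a GC-rich repeat, in which the 14-base run gccccgcgagcccc occurs 7 times. G or C make up 80.7% of its 300-base window, against a median of 60.3% over member promoters and 65.0% over genes tested. Similar shares stood at MRPS6 (82.0%), not called in either line, and MRPS2 (77.0%), higher in both. MRPS26, lower with tRNA-Arg, had 76.7%. MRPL20, which rose 1.56-fold and 1.58-fold in the lines, has the ETS letters starting 44 and 21 bases before the start, and the YY1 letters elsewhere in its window. MRPS22, which rose 1.21-fold with tRNA-Arg (adjusted p = 0.0448) and was not called with tRNA-Glu (log2 difference -0.06), has them on both strands, starting 87 and 79 bases before it. MRPS26, which fell in the tRNA-Arg line, has the ETS letters starting 37 bases before the start. MRPS16 has the YY1 letters at 222 bases and the ETS letters elsewhere in its window, and MRPL39 and MRPS35 have no match.

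Of the 76 members 23 had more than 1 kept probe. Another probe of the gene had the opposite sign for 8 of these in the tRNA-Glu comparison, 6 in the tRNA-Arg comparison and 6 between the lines. Where both probes differed by at least 0.3, this held for MRPL35 in the tRNA-Glu line alone. MRPL42, singled out after its values were seen like MRPL45, had probes at 0.28 and -0.42 in the tRNA-Glu line, and their average was -0.07. Probes of a gene can read different transcript isoforms, and the probe with the highest signal was used in every case.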

How the data were processed

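Total RNA was hybridised to Illumina BeadChips. The deposited scanner table holds, per the file headers, non-normalized intensity with a detection p-value per probe. The authors also deposited a processed intensity table (the submitters' processing notes name lumi) and a log2-like fold table without stated sign. Intensities were background-corrected from the detection p-values and quantile-normalized (neqc, offset 16) in limma 3.58.1 under R 4.3.3. Of 47323 probes 18106 had a detection p under 0.01 on at least 2 arrays, and 14337 of these had 1 named gene. The probe of highest mean stood for its gene, giving 10877 genes. limma (lmFit, eBayes) was fitted over the 3 groups, with 3 residual and 4.28 prior degrees of freedom and Benjamini-Hochberg adjustment over all genes. A check of the fit on simulated data had independent noise and far fewer changed genes than were called here. It therefore does not bear on the calls reported. Standard errors of members had a median of 0.085 (log2), and the number of arrays limits precision. The gene names were those of the annotation table used.

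Named members are up to 8 largest called rises and 8 falls per comparison with arrays that do not overlap, members called in opposite directions, the MRPS18 copies, subunits without an MRP symbol and up to 4 genes of smallest p per related list. Members and lists were chosen with earlier results of these data known. Alternatives covered normalization, background, filter, probes, variance model, replicate block and each array left out. Protein sequences were not used here.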

Additional observations from a re-analysis of the deposited data

Results flagged for a closer look

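Some members differed between the lines by the direct test of the difference (limma, adjusted p under 0.05, arrays of the 2 groups not overlapping). The log2 difference, tRNA-Glu minus tRNA-Arg, was lower than 0 for MRPL39 (-0.74), MRPS35 (-0.54), MRPL3 (-0.53), MRPL50 (-0.41), MRPS18C (-0.40), MRPS30 (-0.40), MRPS14 (-0.39), MRPS22 (-0.33) and MRPL35 (-0.31). It was above 0 for MRPS16 (0.50), MRPL28 (0.48), MRPL41 (0.44), MRPL55 (0.43), MRPS5 (0.38), MRPL38 (0.35), MRPL23 (0.31), MRPL54 (0.30), MRPL24 (0.29) and MRPL12 (0.26). The other members that passed were MRPS28 (-0.32), MRPS18A (0.29), MRPL57 (0.27), MRPL2 (0.27) and MRPL52 (0.23). Some of these calls depended on the probe used. With the probes of a gene averaged, MRPL57 (0.10, adjusted p = 0.279), MRPL24 (0.24, adjusted p = 0.0754) and MRPL35 (-0.18, adjusted p = 0.104) were not called. MRPL42 (-0.39, adjusted p = 0.00757) and MRPL47 (-0.26, adjusted p = 0.0269) were then called instead. With groups of 2 arrays no test for outlying arrays could be made.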

How the results depend on the processing

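Of 1017 values of called members under other settings 2 turned in sign, MRPL42 (-0.07) and MRPL45 (-0.22) with tRNA-Glu when probes were averaged, neither then called, and 0 of 678 did with 1 array left out. Members called higher numbered 38 to 52 with tRNA-Glu (42 as reported) and 35 to 47 with tRNA-Arg (39) under other settings. In the same fits 16.5% to 35.7% of all genes were called higher with tRNA-Glu (31.7% as reported). With tRNA-Arg 10.9% to 25% of all genes were (22.8% as reported). With 1 array left out both member counts were lower, as was the share of all genes called higher. Members called lower with tRNA-Glu numbered 4 to 5 with 1 array left out. The tRNA-Glu median was 0.38 with median scaling (all genes 0.106, against 0.041 as reported) and 0.26 without background correction (all genes 0.03). It was 0.259 with the authors' processed values (all genes 0.031) and 0.212 with probes averaged per gene (all genes 0.025). With 1 array left out it was 0.26 to 0.281. The tRNA-Arg median was 0.337 with median scaling (all genes 0.015). It was 0.242 without background correction (all genes -0.012) or with the authors' values (all genes -0.013), and 0.246 to 0.275 with 1 array left out. Members called lower with tRNA-Arg numbered 1 with median scaling, 5 without background correction, with the authors' values, when only probes detected on all arrays were used, and with eBayes trend and robust, and 0 to 4 with 1 array left out. Between the lines 2 to 13 were called higher and 6 to 10 lower with 1 array left out, and the median was 0.094 with median scaling, 0.029 with cyclic loess, 0.043 with the mean of probes and 0.04 to 0.06 with 1 array left out. The gap between subunit medians in the tRNA-Glu line was 0.096 with median scaling, 0.106 with the mean of probes and 0.104 to 0.169 with 1 array left out. In the tRNA-Arg line it turned from -0.018 to 0.034 by place in the structure, 0.032 with median scaling, 0.017 without background correction, 0.008 with the authors' values and up to 0.037 with 1 array left out. Between the lines it was -0.063 with the mean of probes and -0.039 to -0.009 with 1 array left out. The cause was not tested. Of 378 values of named members under other settings, 10 lost their call, as did 49 of 252 with 1 array left out, and 0 turned in sign. Replicate differences were nearly uncorrelated between groups (r -0.05 to 0.02), and the labels do not say whether arrays of the same replicate number belong together. With the replicate number as a block 41 and 38 members were called higher and 5 and 2 lower in the lines, with 2 of 42 named calls lost.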
